A study of Mus musculus with 18 samples.

Results

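The genes described here are 10 genes that are widely used to recognise fibroblasts and cancer-associated fibroblasts: Pdgfra, Pdgfrb, Fap, Pdpn, Postn, Dcn, Lum, Thy1, Fn1 and Sparc. They were taken by symbol from a table of 55450 genes, each symbol matched 1 row, and all 10 passed the filter on low counts that left 19186 genes for testing. RNA was sequenced from 15 mammary tumors and 3 normal mammary glands of female mice on a C57Bl/6 J background, with 1 library per mouse. B1/P/Rbf tumors (n = 5) carried the genotype Brca1fl/fl/Trp53fl/fl/TgK18GT121Tg/+, B1/P tumors (n = 5) Brca1fl/fl/Trp53fl/fl, P/Rbf tumors (n = 5) Trp53fl/fl/TgK18GT121Tg/+, and normal glands (n = 3) were wild type, so all tumors shared the floxed Trp53 alleles and no gland carried a floxed allele. Tumors arose after Cre recombinase was delivered to adult females by an adenovirus (Ad5-CMV-Cre) placed in the mammary ducts through the nipple. In the models with Rbf, the keratin 18 promoter drives T121, a fragment of a viral protein that binds and inactivates the proteins of the Rb family, in epithelial cells. The CMV promoter that drives Cre is not limited to 1 cell type, and every value below is from whole tissue.

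Fibroblasts build the collagen-rich stroma of the mammary gland. In tumors they take up an activated state, called the cancer-associated fibroblast, with more matrix production, contractility and signaling to neighbouring cells. Receptors for platelet-derived growth factor (PDGF) carry the signal that makes these cells divide and migrate, surface proteins such as Fap, Pdpn and Thy1 are used to sort them, and periostin, Sparc, decorin, lumican and fibronectin are among the proteins that they secrete. No single one of these genes is made by fibroblasts alone. Pdgfrb is also made by pericytes, Pdpn by lymphatic endothelium and by basal and myoepithelial cells, Thy1 by T lymphocytes of the mouse, and Fn1 by many epithelial tumor cells.

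Total expected counts ranged from 27661173 to 37794889 per library, with a median of 33802255, and the lowest count of any of the 10 genes in any library was 54, so that the spread between mice rather than counting error limits what follows. The libraries labelled normal mammary gland held large amounts of RNA of skeletal muscle, adipocyte and lymphocyte genes. Summed CPM (counts scaled to a common library size) over 7 skeletal muscle genes was 29142 to 57908 in the 3 glands and 2.47 to 32.0 in the tumors apart from 725 in B1/P tumor 248662, the sum over 8 adipocyte genes was 20160 to 30216 against 3.08 to 267, and the sum over 8 lymphocyte genes was 396 to 555 against 2.21 to 33.9. All values below are CPM after TMM scaling, and a gene was called when its p from edgeR's quasi-likelihood test, adjusted by Benjamini-Hochberg over the 19186 genes, was at most 0.05.

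Per kilobase of exon, which is the scale on which different genes can be compared, Sparc and Fn1 had the 2 highest medians in every tumor group. In B1/P tumors the range of Fn1 overlapped that of Postn (median 75.6 CPM per kb), and Fn1 stood above Postn in 3 of 5. The median of Fn1 was 70.7 CPM per kb in P/Rbf tumors, 86.7 in B1/P tumors and 265 in B1/P/Rbf tumors, and the median of Sparc was 168, 286 and 88.6. Fn1 stood above Sparc in 5 of 5 B1/P/Rbf tumors, while Sparc stood above Fn1 in 5 of 5 B1/P tumors and 3 of 5 P/Rbf tumors. In normal glands the order was different below Sparc (282 CPM per kb). The proteoglycan Dcn followed at 52.8, then Postn at 44.1, Lum at 43.7 and Thy1 at 37.3, and Fn1 came only 6th at 14.1. Postn and Lum overlapped there, as did Dcn and Postn, whereas the lowest Thy1 value lay above the highest Fn1 value. Fap had the lowest median of the 10 in glands (2.66), in B1/P tumors (1.55) and in P/Rbf tumors (1.01), and Pdgfra had it in B1/P/Rbf tumors (0.952). The ranges of Fap and Pdgfra overlapped in both groups with T121.

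**Figure D1:**
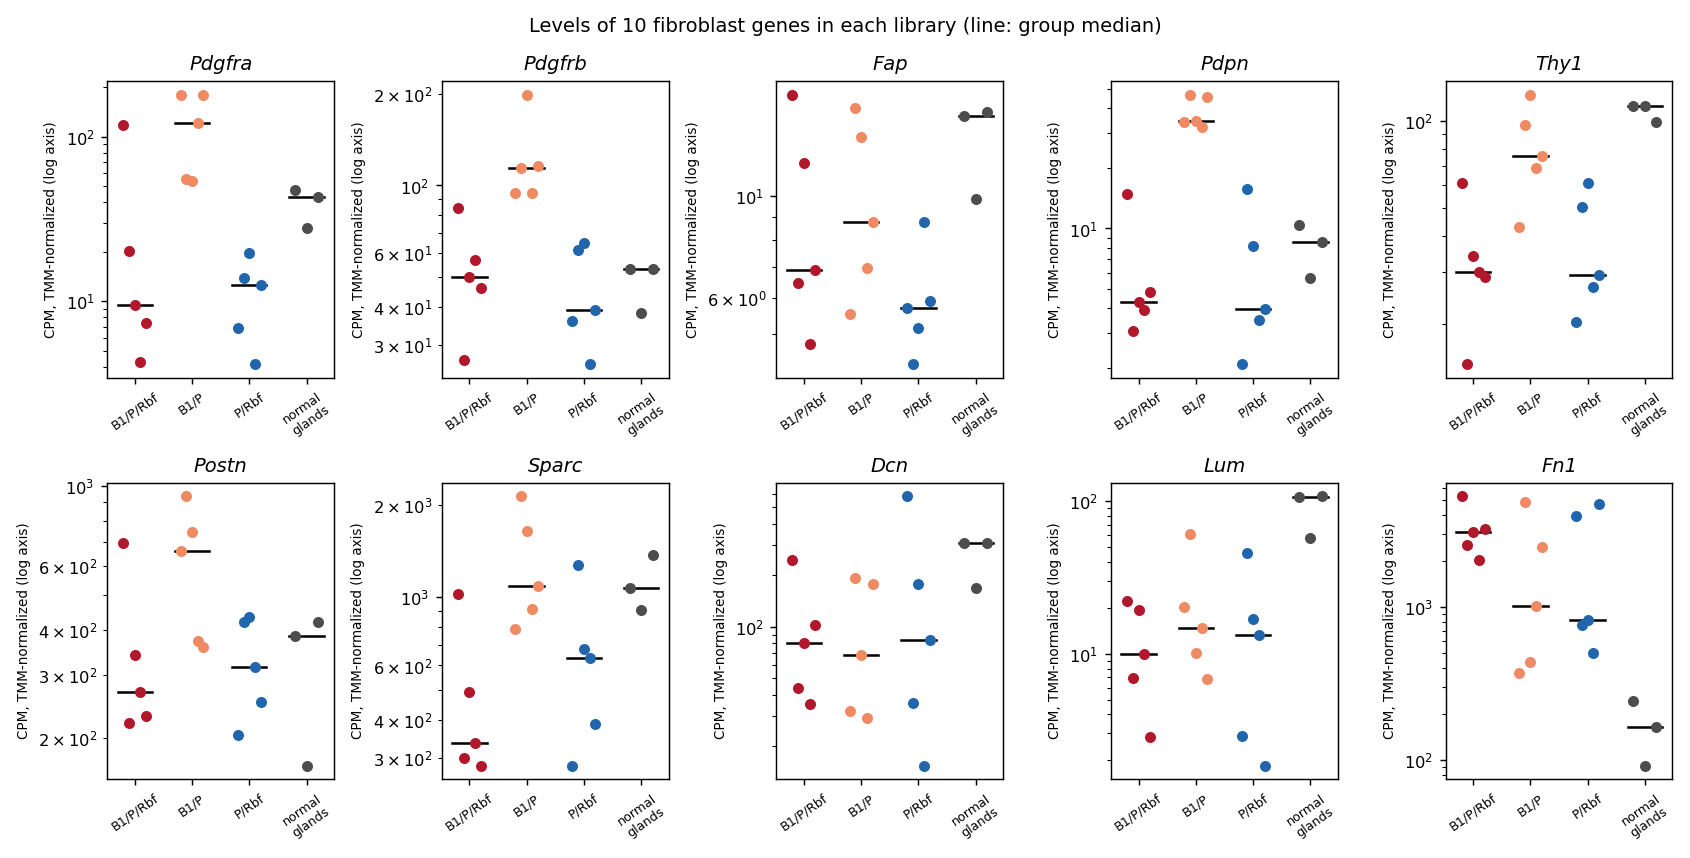
Each panel plots 1 gene, with the TMM-normalized CPM of each library on a log axis, the 4 groups along the horizontal axis and a line at the group median. Pdpn in all 5 B1/P tumors (32.1 to 46.7 CPM) lies above every other library, and Fn1 in all 15 tumors lies above the 3 glands.

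The genes lie on 9 chromosomes of the mouse build GRCm38 (GENCODE M21 annotation). Pdgfra is at chr5:75152292-75198215, Fap at chr2:62500943-62574075, Pdpn at chr4:143267431-143299564, Thy1 at chr9:44043384-44048579, Postn at chr3:54361109-54391037, Sparc at chr11:55394500-55423183 and Fn1 at chr1:71585520-71653200. Dcn (chr10:97479609-97518143) and Lum (chr10:97565128-97572703) are neighbours on the same strand. Pdgfra overlaps 3 annotated genes (Gm42802 and Gm42803 on the opposite strand, Mir7025 on the same strand) and Fn1 overlaps the antisense gene Apol7d. The libraries were made with a stranded kit, but the counting is not stated to have used strand. Reads of partners on the opposite strand could therefore be counted with Pdgfra and Fn1, and use of strand would not separate Mir7025.

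Promoter windows of 300 bases, from 250 before to 50 after the start, were found in the RefSeq table for 4 of the 10 genes (build GRCm38.p6). Those of Pdpn, Postn and Sparc are shown because these 3 genes varied together among the tumors, as described further on. Capitals mark matches to any of 6 motifs searched on both strands, namely the TATA box (its letters TATAAA), the GC box (letters GGGCGG), the AP-1 motif (letters TGANTCA), the TEAD motif (letters GGAATG), the E-box of Snail and Zeb (letters CACCTG) and the Runx motif (letters TGTGGT). None of the matches overlapped another. The table holds a second window for Postn, chr3:54359017-54359316, with no match to any of the 6, and the one printed is the one whose bases after the start lie in a GENCODE transcript.
Pdpn, minus strand, chr4:143299515-143299814: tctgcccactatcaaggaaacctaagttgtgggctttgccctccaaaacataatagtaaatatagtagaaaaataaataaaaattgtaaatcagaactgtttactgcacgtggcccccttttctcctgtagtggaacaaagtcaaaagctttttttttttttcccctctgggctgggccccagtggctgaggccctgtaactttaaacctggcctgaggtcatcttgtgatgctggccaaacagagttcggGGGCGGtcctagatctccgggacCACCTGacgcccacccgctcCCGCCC
Postn, plus strand, chr3:54360857-54361156: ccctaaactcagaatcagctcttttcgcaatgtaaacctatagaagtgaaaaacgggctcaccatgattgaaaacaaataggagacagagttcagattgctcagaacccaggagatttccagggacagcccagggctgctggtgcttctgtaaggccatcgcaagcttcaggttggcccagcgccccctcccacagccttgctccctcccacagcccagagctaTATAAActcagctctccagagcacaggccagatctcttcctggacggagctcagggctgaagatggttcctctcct
Sparc, minus strand, chr11:55420031-55420330: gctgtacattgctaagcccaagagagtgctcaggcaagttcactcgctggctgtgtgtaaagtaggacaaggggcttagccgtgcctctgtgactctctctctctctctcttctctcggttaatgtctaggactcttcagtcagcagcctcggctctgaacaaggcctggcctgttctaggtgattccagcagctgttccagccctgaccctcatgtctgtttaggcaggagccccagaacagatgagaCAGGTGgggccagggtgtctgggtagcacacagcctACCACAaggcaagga
The printed Postn window held a TATA box with its first base at position -26 from the start, and 13.6% of all 32544 windows hold that motif. Pdpn held 2 GC boxes (35.9% of windows hold at least 1) and 1 E-box at position 25, and Sparc held 1 E-box at position -1 and 1 Runx match (16.7% of windows). The E-box letters are in 20.3% of all windows, and no motif was in all 3. No match to AP-1 (7.8% of windows) or TEAD (14.6%) was found in these windows, and the Pdgfra window held none of the 6 motifs, which says only that the letters are not in these stretches.

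The first question was whether the fibroblast genes differ between B1/P tumors and the tumors with T121. Pdpn, Pdgfrb and Thy1 were lower in both groups of tumors with T121 than in B1/P tumors, Sparc was lower in B1/P/Rbf tumors, and Pdgfra was lower in P/Rbf tumors. In B1/P/Rbf against B1/P tumors 4 of 10 genes were called lower and 0 higher, where 9.29% and 7.36% of all tested genes were called, and the median log2 fold change of the 10 was -1.05 against -0.06 for all genes. In P/Rbf against B1/P tumors 4 of 10 were called lower and 0 higher, where 10.8% and 8.43% of all genes were called, with medians of -0.96 and -0.05. In each of these comparisons DESeq2 and limma-voom also called 0 of the 10 genes higher. Both comparisons use the same 5 B1/P tumors. In bulk tissue, fewer fibroblasts, less RNA per fibroblast and less RNA of these genes from tumor cells or other cells cannot be told apart.

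**Figure D2:**
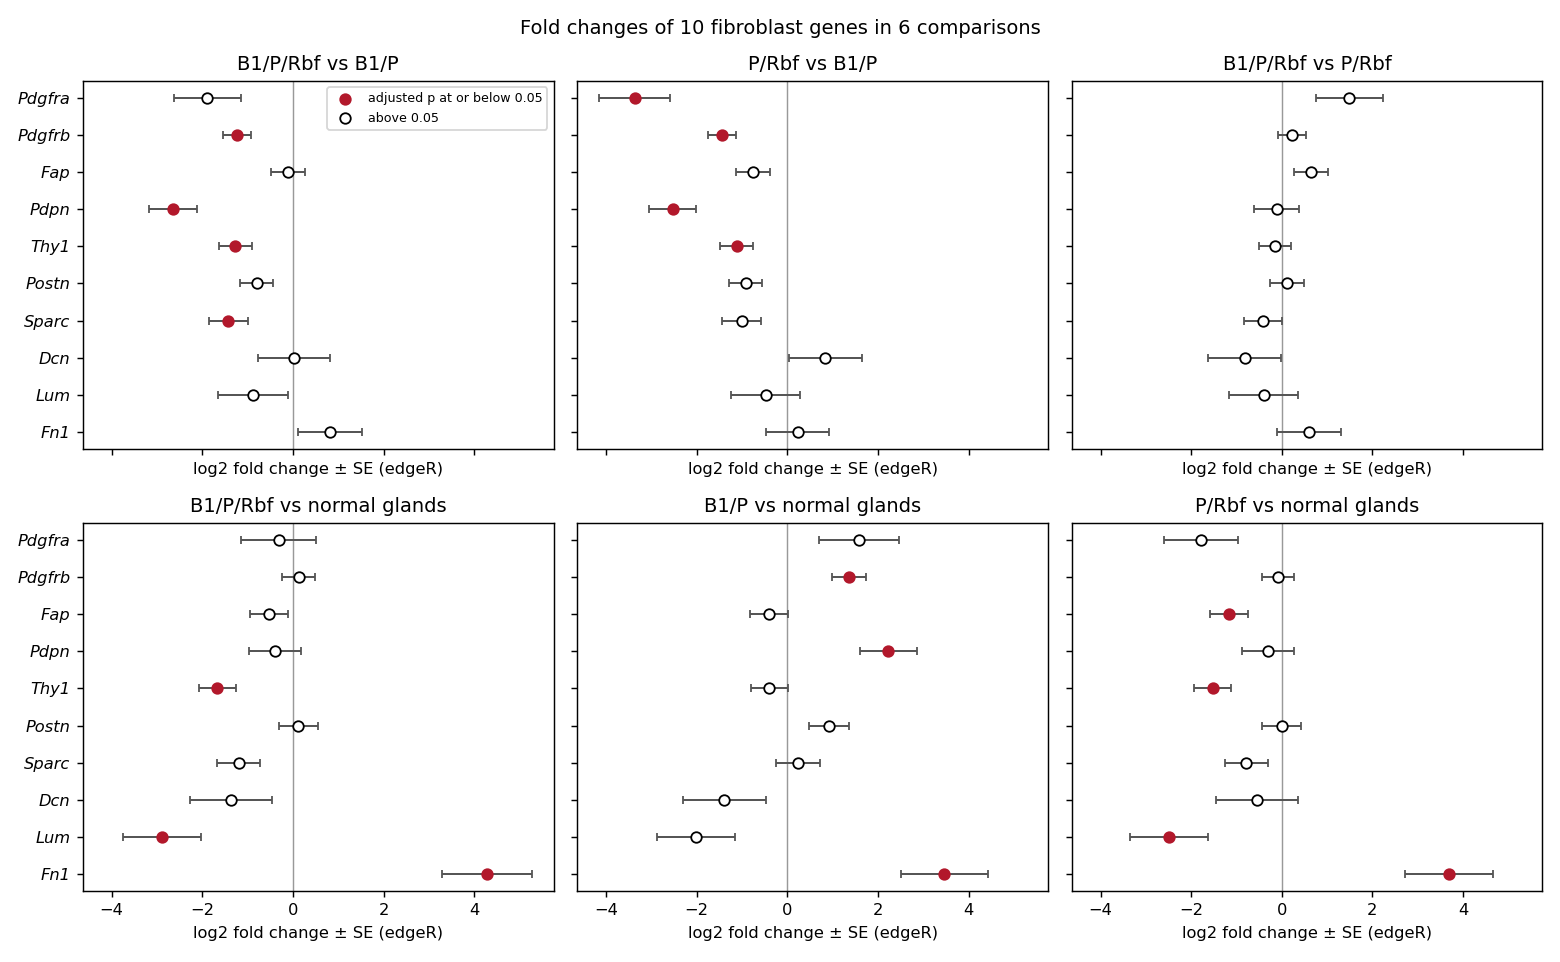
Each panel is 1 comparison, with the log2 fold change of each gene and its standard error from edgeR on the horizontal axis and filled points for calls at an adjusted p of 0.05 or less. The 4 filled points in each of the first 2 panels lie below 0, the panel of B1/P/Rbf against P/Rbf has none, and Fn1 is filled above 0 in all 3 comparisons with normal glands.

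Of the 2 receptors, Pdgfra, which binds the PDGF-A, -B and -C chains and marks fibroblasts and their progenitors, spread most widely. It stood at 181, 55.1, 53.7, 179 and 122 CPM in B1/P tumors 225068, 225070, 246361, 248662 and 255232, the order used for B1/P tumors from here on. In P/Rbf tumors 287822, 287842, 287845, 290845 and 290860 it stood at 4.16, 6.93, 13.8, 12.6 and 19.6 CPM, and in normal glands 330154, 330155 and 330156 at 47.4, 28 and 43.3 CPM. Every P/Rbf tumor was thus below every gland, and every B1/P tumor above. The fall from B1/P to P/Rbf tumors was 10.4-fold (log2 fold change -3.37 ± 0.79 SE, adjusted p = 0.00801 by edgeR), and the call was kept in every fit in which Pdgfra was tested and without any 1 library. Against glands neither change was called, at -1.79 ± 0.82 in P/Rbf tumors (adjusted p = 0.0929) and 1.58 ± 0.89 in B1/P tumors (adjusted p = 0.179), although groups did not overlap in either case. The P/Rbf change was called in the fit of the 2 groups alone (adjusted p = 0.0142 by edgeR) and without 208855 (0.0153), and the B1/P change in the fit of the 2 groups (0.0303), within 1 library set (0.0261) and without 208855 (0.0467). The highest adjusted p of the B1/P change was 0.222 without a filter and, with a library left out, 0.346 without gland 330155.

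In B1/P/Rbf tumors 208855, 208857, 208863, 209490 and 210906 Pdgfra stood at 118, 20.3, 9.54, 4.26 and 7.43 CPM. Tumor 208855 was 13.9-fold above the median of the other 4 and alone lay within the B1/P range. The log2 fold change from B1/P tumors was -1.89 ± 0.74 (edgeR, adjusted p = 0.0909). Without 208855 it was -3.51 with an adjusted p of 0.00148, and from normal glands it was -1.93 (0.0157) in place of -0.31 (0.796). DESeq2 and limma-voom called the difference from B1/P tumors with all 5 tumors (adjusted p of 0.0351 and 0.00746), and the adjusted p over all fits other than those with a library left out ran from 0.00746 to 0.363.

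Pdgfrb, at chr18:61045150-61085061, encodes the receptor of PDGF-B and -D on fibroblasts and pericytes and was less variable. B1/P tumors had 94.6, 114, 199, 116 and 94.6 CPM. Values in B1/P/Rbf tumors were 84.1, 26.7, 50.2, 56.9 and 46.2 CPM, P/Rbf tumors 25.9, 36.0, 61.4, 39.0 and 64.6 CPM, and glands 53.3, 38.1 and 53.2 CPM. All 5 B1/P tumors were above all other 13 libraries, which overlapped among themselves. The fall from B1/P tumors was 2.35-fold in B1/P/Rbf (log2 fold change -1.23 ± 0.31, adjusted p = 0.0130 by edgeR) and 2.73-fold in P/Rbf tumors (-1.45 ± 0.31, 0.00509), and the rise from glands to B1/P tumors was 2.57-fold (1.36 ± 0.37, 0.00976). An earlier analysis of these data inferred 2 sets of libraries that the labels do not give, the first with every B1/P/Rbf tumor plus 225068, 225070 and 246361 of the B1/P group, the second with the rest. With a term for these sets, the adjusted p was 0.0566 for P/Rbf against B1/P tumors and 0.0687 for B1/P tumors against glands, and within the first set it was 0.0576 for B1/P/Rbf against B1/P tumors, with log2 fold changes of -1.22, 1.13 and -1.34.

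The PDGF chains that these receptors bind were all tested. Pdgfa averaged 57.0 ± 17.5 CPM (SD) in tumors of the B1/P/Rbf model, 67.4 ± 30.4 in B1/P and 47.0 ± 20.6 in P/Rbf tumors against 11.0 ± 1.47 in glands, and was called higher in each tumor group (log2 fold changes of 2.37, 2.61 and 2.09 by edgeR). Pdgfb averaged 72.5, 104 and 57.9 CPM against 28.5 in glands and was called in B1/P/Rbf and B1/P tumors (1.35 and 1.86), while in P/Rbf tumors the change of 1.02 had an adjusted p of 0.0519. Pdgfc was higher in B1/P tumors (78.6 ± 44.5 CPM) than in glands (22.4 ± 2.90) and fell from there to B1/P/Rbf tumors (20.2 ± 14.6 CPM), by a log2 fold change of -1.96 ± 0.55 (edgeR, adjusted p = 0.0231). The Pdgfc calls were lost with the library-set term and in 7 (B1/P tumors against glands) and 2 (B1/P/Rbf against B1/P tumors) of the fits with a library left out, with adjusted p up to 0.127 and 0.0585, and that of Pdgfb in B1/P/Rbf tumors was lost without gland 330156 (0.0524) and with the set term (0.0503). Pdgfd averaged 4.65 to 8.06 CPM and was called in no comparison.

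Among surface proteins, Pdpn separated the groups most sharply. Podoplanin, its product, is a mucin-like membrane glycoprotein that binds CLEC-2 on platelets. It stood at 34.1, 46.7, 34.6, 45.2 and 32.1 CPM in B1/P tumors. Values in B1/P/Rbf tumors were 14.8, 3.08, 4.30, 3.93 and 4.84 CPM, P/Rbf tumors 3.50, 2.10, 15.7, 3.95 and 8.17 CPM, and glands 10.4, 5.66 and 8.60 CPM. The lowest B1/P tumor was above the highest of the other libraries, and B1/P tumors also had the narrowest spread of the 3 tumor groups (1.46-fold between lowest and highest). Compared with B1/P tumors, Pdpn was 6.22-fold lower in B1/P/Rbf (-2.64 ± 0.53, adjusted p = 0.00318 by edgeR) and 5.77-fold lower in P/Rbf tumors (-2.53 ± 0.52, 0.00405), and 4.70-fold higher in B1/P tumors than in glands (2.23 ± 0.63, 0.0116). Within 1 library set the log2 fold changes were -2.61, -2.53 and 2.24, each still called.

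Pdpn is also made by basal and myoepithelial cells and by lymphatic endothelium. Summed CPM over 7 myoepithelial and basal genes had a median of 1304 in B1/P tumors, 188 in B1/P/Rbf and 112 in P/Rbf tumors and 254 in glands. It was 1304, 175, 2042, 2006 and 867 in the single B1/P tumors, so that 3 of the 5 (225068, 225070 and 255232) lay within the range of the other groups (24.7 to 1356). The sum over 4 lymphatic endothelial genes was 10.5 to 58.3 in B1/P tumors, 7.63 to 40.2 in B1/P/Rbf, 3.85 to 26.5 in P/Rbf tumors and 206 to 298 in glands. The part of these cells in the Pdpn values was not tested.

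Thy1, a small protein held to the membrane by a lipid anchor, stood at 43.1, 96.9, 123, 75.5 and 68.8 CPM in B1/P tumors and at 112, 112 and 98.8 CPM in glands. In B1/P/Rbf tumors it was 61.2, 14.5, 34.2, 30 and 29.0 CPM, and in P/Rbf tumors 26.7, 20.3, 50.6, 29.3 and 61.0 CPM. All 10 tumors with T121 were below the 3 glands, while both of these groups overlapped the lowest B1/P tumor. Thy1 was called lower than in glands in B1/P/Rbf (-1.67 ± 0.41, adjusted p = 0.00419 by edgeR) and P/Rbf tumors (-1.52 ± 0.41, 0.00763) and lower than in B1/P tumors in both (-1.27 ± 0.37, 0.0255, and -1.12 ± 0.37, 0.0414). The calls against B1/P tumors were near the threshold, with adjusted p up to 0.101 and 0.210 under the other fits, and leaving out B1/P tumor 246361 gave 0.0662 and 0.102. With the library-set term the call of B1/P/Rbf tumors against glands was lost (-1.95, adjusted p = 0.0577 by edgeR), while that of P/Rbf tumors was kept (0.00897). Thy1 is also a T cell gene, all 8 lymphocyte genes were lower in each tumor group than in glands (median log2 fold changes of -4.84, -4.75 and -5.40), and their part in the Thy1 values of glands was not tested.

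Fap, the membrane protease that gives activated fibroblasts one of their names, was low throughout. Its means were 9.32 ± 4.90 CPM in B1/P/Rbf, 10.1 ± 4.32 in B1/P and 5.96 ± 1.70 in P/Rbf tumors and 13.4 ± 3.08 in glands. B1/P tumors had 5.53, 15.6, 13.5, 8.76 and 6.95 CPM, which overlapped each of the other groups. No comparison among tumors was called for Fap. All 5 P/Rbf tumors (4.29 to 8.79 CPM) lay below the 3 glands (9.85 to 15.3 CPM), and that difference was called (-1.17 ± 0.42, adjusted p = 0.0373 by edgeR), but it was not called with limma-voom (0.175), without TMM scaling (0.102), without a filter (0.0630) or without any 1 of the 3 glands (0.0545 to 0.127) or of P/Rbf tumors 287842, 287845, 290860 and 290845 (0.0618 to 0.0762).

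Of the matricellular genes, Sparc, which encodes a collagen-binding protein of the matrix, stood at 787, 2133, 1641, 1085 and 918 CPM in B1/P tumors and at 1070, 912 and 1377 CPM in glands. It was 1023, 301, 493, 335 and 283 CPM in B1/P/Rbf tumors and 636, 283, 1271, 387 and 679 CPM in P/Rbf tumors. In each group with T121, 4 of 5 tumors were below every B1/P tumor, with 208855 and 287845 the exceptions. The difference from B1/P tumors was called in B1/P/Rbf tumors (-1.43 ± 0.43, adjusted p = 0.0316 by edgeR) and not in P/Rbf tumors (-1.01 ± 0.43, 0.104), and the difference between those changes was itself not called (-0.42 ± 0.42, 0.683). Within the first library set the B1/P/Rbf value was -1.61 with an adjusted p of 0.0748, leaving out single libraries gave up to 0.0787, and without 287845 the P/Rbf change was -1.40 (0.0301), which limma-voom called with all tumors (0.0403). From glands to B1/P/Rbf tumors the change of -1.20 ± 0.48 was not called (adjusted p = 0.0583 by edgeR), but it was called by DESeq2 (0.0410), with both CPM filters (0.0392 and 0.0199), in the fit of the 2 groups (0.0447) and without 208855 (0.00845) or 287845 (0.0386).

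Postn encodes periostin, a secreted ligand of integrins that activated fibroblasts make. It averaged 351 ± 198 CPM in B1/P/Rbf, 613 ± 249 in B1/P and 325 ± 101 in P/Rbf tumors and 324 ± 137 in glands. The B1/P values of 658, 935, 746, 358 and 371 CPM fell into the range of every other group at their lower end. No comparison was called, with -0.80 ± 0.37 (adjusted p = 0.151 by edgeR) in B1/P/Rbf and -0.92 ± 0.37 (0.0924) in P/Rbf against B1/P tumors. Without 208855 the first of these was -1.21 with an adjusted p of 0.0271. From glands to B1/P tumors the change was 0.92 ± 0.44 (adjusted p = 0.119 by edgeR), and it was called without TMM scaling (1.29, 0.0286). In the fit within the second library set the P/Rbf change was -0.17 (0.818), where the B1/P tumors are the 2 lowest, 248662 and 255232.

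The proteoglycans decorin and lumican bind collagen fibrils and set their spacing, and their genes did not move together. Dcn stood at 31.9, 194, 68.4, 177 and 29.0 CPM in B1/P tumors. It was 246, 43.6, 80.6, 35.3 and 102 CPM in B1/P/Rbf tumors and 15.3, 582, 35.5, 83.4 and 178 CPM in P/Rbf tumors, against 308, 169 and 310 CPM in glands. P/Rbf tumors spanned 37.9-fold, with 287842 at 9.79 times the median of the other 4 and above every gland. No comparison was called for Dcn, and the largest change was -1.39 ± 0.91 (adjusted p = 0.249 by edgeR) from glands to B1/P tumors.

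Lum was 107, 57.8 and 108 CPM in glands. B1/P tumors had 20.4, 61.0, 10.1, 6.87 and 14.7 CPM, B1/P/Rbf tumors 22.1, 6.91, 19.5, 10.0 and 2.86 CPM, and P/Rbf tumors 13.2, 2.88, 46.1, 1.84 and 17.0 CPM. Of the 15 tumors, 225070 alone reached the range of the glands. Lum was called 7.39-fold lower in B1/P/Rbf (-2.89 ± 0.87, adjusted p = 0.0156 by edgeR) and 5.6-fold lower in P/Rbf tumors (-2.49 ± 0.87, 0.0318) and was not called in B1/P tumors (-2.01 ± 0.86, 0.0811), where leaving out 225070 gave -2.80 (0.0205). The P/Rbf call was lost in 6 of the fits with a library left out, with an adjusted p of up to 0.0876 by edgeR, and in the fit of the 2 groups (0.0524). Without 287845 the P/Rbf change was -3.38 (0.00618). The log2 ratio of Lum to Dcn was -1.53 ± 0.01 (SD, n = 3) in glands, and -3.02 ± 1.34 in B1/P/Rbf, -2.14 ± 1.63 in B1/P and -3.26 ± 3.41 in P/Rbf tumors, where it ran from -7.63 in 287842 to 0.38 in 287845.

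Fn1 was the 1 gene of the 10 that was called higher than in glands in all 3 tumor groups. Fibronectin, its product, is the adhesive glycoprotein of provisional matrix. Fn1 stood at 371, 4895, 437, 2476 and 1013 CPM in B1/P tumors. It was 5318, 2569, 3092, 2041 and 3227 CPM in B1/P/Rbf tumors and 504, 3947, 766, 4703 and 826 CPM in P/Rbf tumors, against 244, 92.0 and 165 CPM in glands. All 15 tumors were above every gland, and B1/P and P/Rbf tumors each held 2 tumors at 2476 CPM or more and 3 at 1013 CPM or less. It was 19.5-fold higher than in glands in B1/P/Rbf (4.28 ± 1.00, adjusted p = 0.00309 by edgeR), 11.0-fold in B1/P (3.46 ± 0.96, 0.0103) and 12.9-fold in P/Rbf tumors (3.69 ± 0.97, 0.00659). Among tumor groups no difference was called, and the interval of ± 2 SE for B1/P/Rbf against B1/P tumors ran from -0.59 to 2.23. The call in B1/P tumors was lost without gland 330155 (3.20, adjusted p = 0.0508), as was that of Pdpn (2.06, 0.0557).

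Against normal glands, then, the 10 genes went in both directions. The counts in B1/P/Rbf tumors, and the count of genes called higher in P/Rbf tumors, were near the shares of all genes called. In B1/P/Rbf tumors 1 gene was called higher (Fn1) and 2 lower (Thy1, Lum), where 17.1% and 20.0% of all genes were called. In B1/P tumors 3 were higher (Pdgfrb, Pdpn, Fn1) and 0 lower, where 16.8% and 16.9% of all genes were called, and Lum was lower at an unadjusted p of 0.0320 by edgeR and called by DESeq2 and limma-voom. In P/Rbf tumors 1 was higher (Fn1) and 3 lower (Fap, Thy1, Lum), where 17.4% and 20.3% of all genes were called. Median log2 fold changes of the 10 genes were -0.46, 0.57 and -0.67 against 0.05, 0.12 and 0.05 for all genes. The 3 comparisons share their glands, and the glands carry the muscle, adipocyte and lymphocyte RNA given above, whose part in these values was not tested.

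Between P/Rbf and B1/P/Rbf tumors, which differ in the floxed Brca1 alleles, 0 of 10 genes were called higher and 0 lower by edgeR, where 0.219% and 0.0625% of all genes were called. None had an unadjusted p under 0.05, and DESeq2 and limma-voom called none. The median log2 fold change was 0.00 for the 10 genes and -0.01 for all genes. The intervals of ± 2 SE ran from -0.39 to 0.83 for Pdgfrb, -1.10 to 0.88 for Pdpn, -0.63 to 0.85 for Postn and -2.43 to 0.80 for Dcn, which were the widths of difference that these 10 tumors leave room for. For Pdgfra the interval of 0.01 to 2.96 around 1.49 rested on 208855, without which the value was -0.14.

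Exact two-sided permutation tests of single genes, in which the smallest possible p is 0.00794 for 5 against 5 and 0.0179 for 5 against 3, gave no adjusted p of 0.05 or less over the 60 tests. The lowest adjusted p was 0.0765. Among 4 log2 ratios between genes in 6 comparisons, none passed adjustment over the 24 exact permutation tests (lowest adjusted p = 0.122). The ratio of Pdgfrb to Pdgfra was 2.10 ± 0.42 in P/Rbf tumors, 0.20 ± 1.21 in B1/P tumors and 0.30 ± 0.14 in glands, and all 5 P/Rbf tumors (1.63 to 2.62) were above all 3 glands (exact permutation p = 0.0179 before adjustment). The ratio of Postn to Dcn was 0.25 ± 0.23 in glands, 2.95 ± 1.32 in B1/P tumors and 2.00 ± 0.69 in B1/P/Rbf tumors, and all 10 of these tumors were higher than the glands (exact permutation p = 0.0357 in each comparison before adjustment). In P/Rbf tumors it was 1.86 ± 2.29, with 4 of 5 above the glands. The ratio of Fap to Pdgfra, which had the lowest p of the 24 before adjustment, was -3.46 ± 1.46 in B1/P, -0.82 ± 1.36 in B1/P/Rbf and -0.78 ± 1.21 in P/Rbf tumors and -1.55 ± 0.09 in glands. In each group with T121, 4 of 5 tumors were above every B1/P tumor (exact permutation p = 0.0317 in B1/P/Rbf and 0.0159 in P/Rbf before adjustment), and all 5 B1/P tumors were below the 3 glands (exact permutation p = 0.0357).

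The next question was how the genes vary among tumors of 1 genotype. Log2 CPM was centred on the mean of each tumor group, and the 45 pairs of genes were compared over the 15 tumors. Pearson's r was positive in 39 of 45 pairs, with a median of 0.32 and a range from -0.26 to 0.90. By permutation within groups and adjustment over 45 pairs, 9 were called by Pearson's r, all of them positive, and 6 of those by Spearman's rho. With 5 tumors per group no value was computed within a single group.

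**Figure D3:**
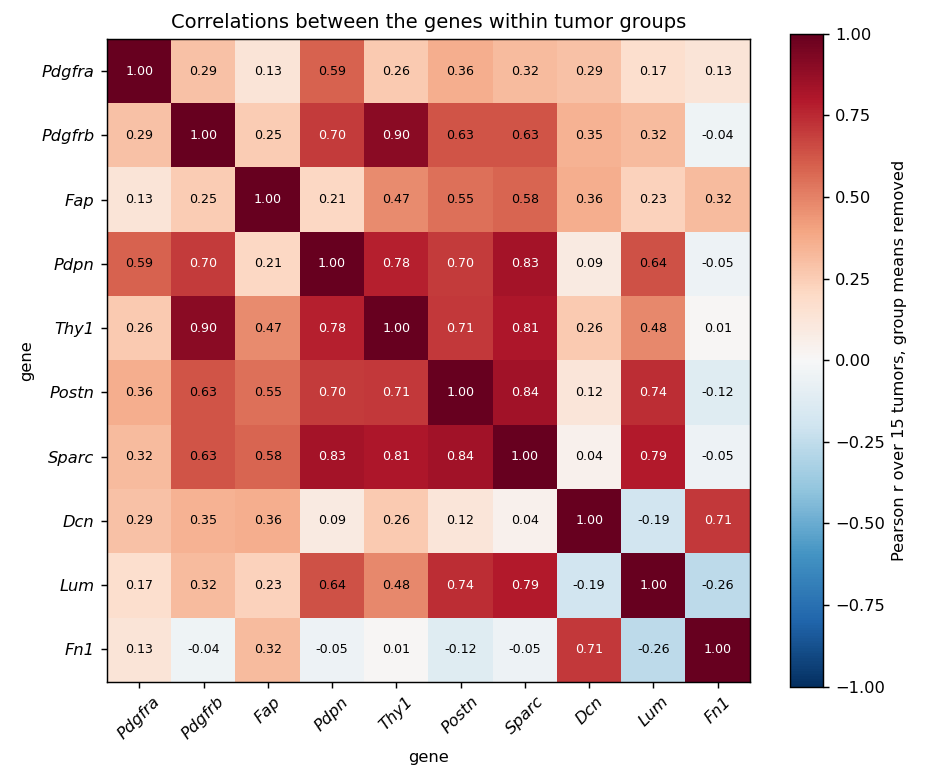
The colour and number in each square give Pearson's r between 2 genes over the 15 tumors after group means were removed. Pdpn, Thy1, Postn, Sparc and Lum form a block of positive values up to 0.84, while the row of Fn1 holds values of at most 0.32 (with Fap) apart from Dcn (0.71).

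Pdgfrb and Thy1 had the highest correlation (r = 0.90, permutation p = 0.0003, adjusted p = 0.0103, and rho = 0.93, permutation p = 7e-05, adjusted p = 0.00315), and r was 0.83 without the 2 tumors farthest from the median of Pdgfrb. Postn and Sparc followed (r = 0.84, permutation p = 0.00046, adjusted p = 0.0103, and rho = 0.73, permutation p = 0.0061, adjusted p = 0.0457), with r = 0.83 without the 2 farthest tumors. Sparc was further called with Pdpn (0.83), Thy1 (0.81) and Lum (0.79), Pdpn with Thy1 (0.78) and Postn (0.70), and Postn with Lum (0.74) and Thy1 (0.71), so that Pdpn, Postn and Sparc, whose promoters are shown above, were called in all 3 of their pairs by Pearson's r. By Spearman's rho, Postn with Sparc alone of these 3 pairs was called (permutation test, adjusted p = 0.0540 for Pdpn with each of the other 2). Fap and Pdgfra were called with none. Without tumor 208855, 1 pair was called and the median r was 0.22, and without any other single tumor 6 to 11 pairs were called.

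Dcn and Fn1 stood apart from that block. Dcn with Fn1 had r = 0.71 (permutation p = 0.0142, adjusted p = 0.0639) and rho = 0.72 (permutation p = 0.0131, adjusted p = 0.0540), and r = 0.61 without the 2 farthest tumors. Dcn with its neighbour Lum had r = -0.19, Dcn with Sparc 0.04 and Fn1 with Sparc -0.05. In B1/P tumors, 225070 and 248662 were the highest of both Dcn (194 and 177 CPM) and Fn1 (4895 and 2476 CPM), and in P/Rbf tumors 287842 had the highest Dcn (582 CPM) and the second highest Fn1 (3947 CPM).

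**Figure D4:**
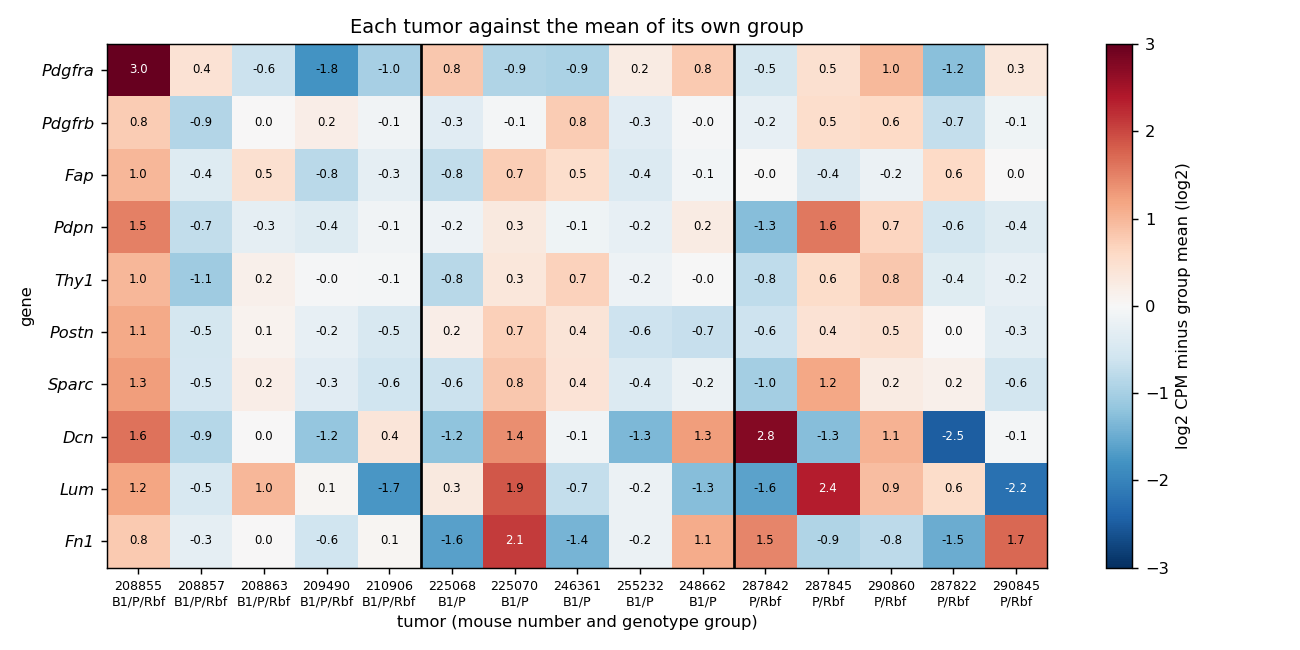
Each column is 1 tumor and each row 1 gene, and the colour and number give log2 CPM minus the mean of the tumor's own group. Column 208855 is above its group mean for all 10 genes, and column 287842 is high for Dcn and Fn1 and low for Lum, Pdpn, Thy1, Postn and Sparc.

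Single tumors carried much of this pattern. Tumor 208855 was the highest of B1/P/Rbf tumors for all 10 genes, at 1.75 (Pdgfrb) to 13.9 (Pdgfra) times the median of the other 4. Its sum over the 20 other fibroblast matrix genes was 6899 CPM against 1437 to 3265 in the others, with 267 against 4.19 to 55.0 for adipocyte genes, 401 against 122 to 218 for endothelial genes and 5123 against 3176 to 5924 for epithelial genes. Tumor 225070 was the highest of B1/P tumors for 7 genes, with a matrix sum of 18042 CPM against 4529 to 10199 and a macrophage sum of 3381 against 466 to 1388. The part of adjacent tissue or of other cells in these tumors was not tested. Tumor 287842 was the lowest of P/Rbf tumors for Pdpn (2.10 CPM), Thy1 (20.3), Postn (204) and Sparc (283) and had the highest epithelial sum of all libraries (8924 CPM).

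Over all 12149 genes whose mean reached 5 CPM in tumors, those most like the mean profile of the 10 genes across the 15 tumors were Col5a2 (r = 0.95), Slit3 (0.95), Cpxm1 (0.95), Islr (0.93) and Col1a1 (0.92), given as a description. Col5a2 and Col1a1 encode chains of fibrillar collagen. Slit3 encodes a secreted guidance ligand, and Col1a1 was the most abundant of the 5 with a mean of 926 CPM. Tumor 208855 stood highest in the mean profile (mean z-score of 1.66, next 0.82 in 225070), and the r values above include it.

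Other fibroblast genes, from lists written with earlier results of these data known, were also lower in tumors with T121 for part of the members of some lists. The shares of all genes called, given above for the 10 genes, stand behind these counts too: 9.29% and 10.8% lower than in B1/P tumors in the B1/P/Rbf and P/Rbf groups, 7.36% and 8.43% higher, and 16.8% higher and 16.9% lower in B1/P tumors than in glands. Of 20 genes of matrix and crosslinking, 7 were lower in B1/P/Rbf and 8 in P/Rbf than in B1/P tumors by edgeR (medians of -1.41 and -1.35), and 11 were higher in B1/P tumors than in glands (median 1.72), while 0 and 1 were higher in the other tumor groups. The largest of these changes was in Vcan, the gene of the large proteoglycan versican, with 249 ± 91.9 CPM in B1/P, 14.6 ± 6.22 in B1/P/Rbf and 28.4 ± 37.4 in P/Rbf tumors and 11.1 ± 4.81 in glands. Of 9 tested genes for fibroblast transcription factors and surface proteins, 4 were lower in each group with T121 than in B1/P tumors, led by the transcription factor gene Osr1 (20.5 ± 10.6 CPM in B1/P, 2.02 ± 2.20 in B1/P/Rbf and 0.341 ± 0.281 in P/Rbf tumors). The Osr1 call in B1/P/Rbf tumors was lost within 1 library set (adjusted p = 0.0666 by edgeR). Against glands 2 of the 9 were lower in B1/P tumors (1 without 248662), 6 in B1/P/Rbf and 7 in P/Rbf tumors, where 16.9%, 20.0% and 20.3% of all genes were lower.

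For states of fibroblasts, the counts of called genes against glands stand beside 16.8% to 17.4% of all genes called higher and 16.9% to 20.3% called lower, and the lists were not tested against each other. Of 12 myofibroblast genes, 5 were higher in B1/P/Rbf, 8 in B1/P and 5 in P/Rbf tumors than in glands, with the matrix glycoprotein gene Tnc at 519 ± 637 CPM in B1/P tumors against 9.69 ± 1.47 in glands, while Acta2, the smooth muscle actin gene, was lower in B1/P/Rbf tumors (56 ± 47.6 against 153 ± 45.3 CPM), a call near the threshold (adjusted p = 0.0459 by edgeR) that was lost in 12 of the fits with a library left out (up to 0.168). Of 10 genes of resting and adventitial fibroblasts, 4, 4 and 7 were lower than in glands, with median log2 fold changes of -2.41, -1.37 and -4.27, and the B1/P count was 2 without 248662. In B1/P tumors 1 gene of this list, Mfap4, was higher (2.67 ± 0.90, adjusted p = 0.0305 by edgeR), but not with the library-set term (0.222) or without 225070 or any 1 gland (up to 0.115). Against B1/P tumors 6 were lower in P/Rbf and 0 in B1/P/Rbf tumors, beside 10.8% and 9.29% of all genes. Of these 6, the call of Clec3b was lost with limma-voom, with the library-set term (adjusted p = 0.316 by edgeR) and without 225070 (0.0619). Clec3b of that list was 51.7 ± 21.4 CPM in glands and 0.162 ± 0.107 CPM in P/Rbf tumors. Of 10 tested genes of inflammatory fibroblasts, 3, 4 and 4 were higher and 1, 1 and 2 lower than in glands. The chemokine gene Cxcl12 fell in all 3 (29.9, 35.9 and 11.4 CPM against 147), and the cytokine gene Lif rose in all 3 (84.6 ± 32.4, 68.0 ± 72.1 and 85.8 ± 79.1 CPM against 6.00 ± 1.31). With the library-set term, P/Rbf tumors alone kept both of these calls (adjusted p by edgeR up to 0.0969 for Cxcl12 and 0.169 for Lif in the other groups), and the Cxcl12 call in B1/P tumors was also lost without 225068, 255232, 248662 or any 1 gland (up to 0.0778). Of 7 genes listed for antigen-presenting fibroblasts, 2 were higher in each tumor group and 4, 0 and 4 lower, the latter led by class II genes that other immune cells also make. Of 5 integrin genes for receptors of fibronectin and periostin, 3, 2 and 4 were higher than in glands, with Itgav at 151 and 193 CPM in B1/P/Rbf and P/Rbf tumors against 62.0. In B1/P tumors Itgav stood at 94.3 CPM and was not called (0.61 ± 0.35, adjusted p = 0.199 by edgeR). Against B1/P tumors, 1 of the 12 myofibroblast genes was lower in each group with T121 and 0 higher. Of the 10 inflammatory genes 0 were lower, and 2 were higher in P/Rbf tumors (8.43% of all genes). Of the antigen-presenting list 1 gene was higher in B1/P/Rbf tumors (7.36% of all genes) and 2 lower in P/Rbf tumors. Itgav was higher in P/Rbf tumors (1.03 ± 0.30, adjusted p = 0.0254 by edgeR), but not with the library-set term (0.224).

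Markers of other cells were also compared with B1/P tumors, beside 9.29% and 10.8% of all genes called lower and 7.36% and 8.43% called higher in B1/P/Rbf and P/Rbf tumors. Of 8 pericyte genes, 4 were lower in B1/P/Rbf and 7 in P/Rbf than in B1/P tumors, beside the fall of Pdgfrb, and their summed CPM was 503 to 925 in B1/P, 242 to 624 in B1/P/Rbf and 219 to 405 in P/Rbf tumors. Of 8 epithelial genes, 3 and 5 were higher in the same comparisons (4 and 3 without 248662), and the summed CPM was 979 to 2759 in B1/P, 3176 to 5924 in B1/P/Rbf and 4837 to 8924 in P/Rbf tumors, with no overlap between B1/P and the other tumors. Of these 8, Esrp1 averaged 211, 215 and 265 CPM and Cldn3 133, 107 and 141 CPM in B1/P, B1/P/Rbf and P/Rbf tumors. Neither was called. Of 6 genes tied to mesenchymal transition, 3 and 4 were lower than in B1/P tumors. Of 7 myoepithelial and basal genes, 3 and 2 were lower (2 and 1 without B1/P tumor 248662). Of 7 skeletal muscle genes, 4 and 5 were lower by edgeR, and those counts rested on 248662, since the muscle sum was 3.12 to 12.4 CPM in the other 4 B1/P tumors and without it 1 and 0 genes were lower and 1 and 1 higher. Of 8 adipocyte genes, 1 was higher in B1/P/Rbf tumors (3 without 248662) and 1 lower in P/Rbf tumors, a share near that of all genes. Genes called lower than in B1/P tumors in the B1/P/Rbf and P/Rbf groups numbered 0 and 0 of 8 for endothelium, 0 and 1 of 4 for lymphatic endothelium, 0 and 1 of 8 for macrophages and 0 and 0 of 8 for lymphocytes, and none of these 4 lists had a gene called higher. The part of the shares of epithelial, basal and muscle cells and pericytes in the fibroblast values was not tested.

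**Figure D5:**
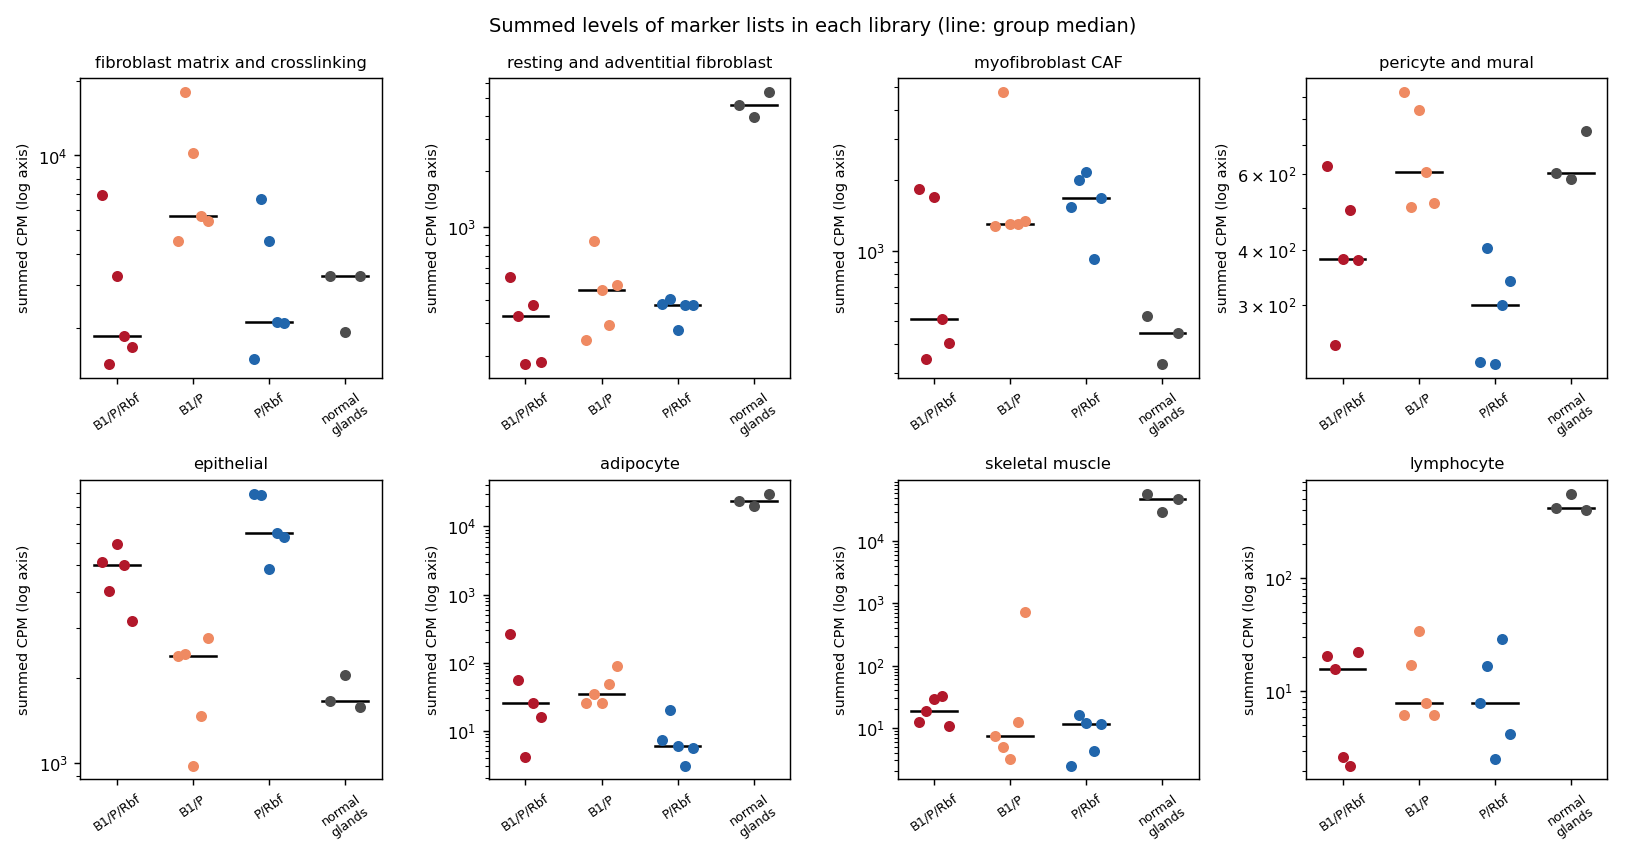
Each panel plots the summed CPM of 1 marker list in each library on a log axis, with a line at the group median. The median of fibroblast matrix genes is highest in B1/P tumors (4529 to 18042 CPM), where the range overlaps B1/P/Rbf (up to 6899) and P/Rbf tumors (up to 6668). The epithelial sum is lowest in B1/P tumors among tumors, though not every gene of that list follows it. Adipocyte, muscle and lymphocyte sums are far higher in the 3 glands than in any tumor.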

How the data were processed

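Bulk RNA of 18 mice was sequenced. The authors deposited RSEM expected counts per gene, neither normalized nor filtered, and 5.61% of the values were not whole. The submitters' processing notes name FastQC 0.11.5, Picard 1.119, cutadapt 1.18, RSEM 1.3.0 and DESeq2 1.28.1. They name human builds beside mm10, while all 55450 identifiers and symbols were those of GENCODE M21 (GRCm38). Where a read matched several genes, RSEM shared it between them.

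Expected counts were rounded and fitted in R 4.3.3 with edgeR 4.0.16 (filterByExpr with a minimum count of 10, TMM, estimateDisp, glmQLFit, glmQLFTest) over all 18 samples, with genotype group as the only term and 6 comparisons. P-values were adjusted by Benjamini-Hochberg over all genes tested, and the same steps were tested on simulated data. Log2 CPM used a prior count of 2, and per-kb values used merged exon length. Ratios and single genes were compared by exact permutation tests, and correlations by 100000 permutations within groups. Scripts ran in Python 3.11.15.

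Alternatives were DESeq2 1.42.0, limma-voom 3.58.1 with quantile normalization, no TMM, no filter, and a filter of 6 CPM, or of 6 on the log2 CPM scale, reached by 6 or more samples. The study used limma-voom with quantile normalization, but after its log2 CPM filter, which the limma-voom fit here left out. That fit also held no term for the library sets, and the study states none. Further alternatives were only the 2 groups compared, a term for the 2 library sets, fits within 1 set, a prior count of 0.5, centring on 2 classes of tumor, and each library left out. The library sets came from an earlier analysis of the study's listed fold changes. The 10 genes and the marker lists were chosen with earlier results of these data known. From each list, named genes were those with the largest called rise or fall at a mean of at least 5 CPM, with the PDGF chains and the 5 genes most like the members' mean named in addition. Each library is 1 mouse, so the replicate is the mouse.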

Additional observations from a re-analysis of the deposited data

Results flagged for a closer look

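Of 42 sets of 4 or more tumors in which a single gene or ratio was checked for a value far from the rest (gap to the nearest value divided by the range above 0.71 for 5 samples), 7 held one on the CPM scale, where chance gives about 1 in 20. On log2 CPM, a scale added after the data were seen, 2 of 30 sets for single genes held one (Pdgfrb in B1/P and Pdpn in B1/P/Rbf tumors), so the number depends on the scale. In B1/P/Rbf tumors, 208855 stood apart for Pdgfra (118 CPM, next highest 20.3), Pdpn (14.8, next 4.84), Postn (696, next 340) and Sparc (1023, next 493). In B1/P tumors, 246361 stood apart for Pdgfrb (199 CPM, next 116) and 225070 for Lum (61.0, next 20.4). In P/Rbf tumors, 287842 stood apart for Dcn (582 CPM, next 178).

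For Pdgfra, every B1/P tumor lay above and every P/Rbf tumor below all 3 glands. Neither change from glands was called (1.58 and -1.79, edgeR, adjusted p = 0.179 and 0.0929). The difference between them, which is P/Rbf against B1/P tumors, was a log2 fold change of -3.37 (edgeR, adjusted p = 0.00801). It was called in each fit that tested the gene, with adjusted p from 3.76e-05 to 0.0164, and without any 1 library (0.000899 to 0.0206).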

How the results depend on the processing

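Of 1566 refitted member fold changes (60 results), 1438 kept their direction and their side of the threshold, 50 lost a call, 23 gained one and 55 changed sign, none of them from a called value to a called value of the other sign. Genes called lower in B1/P/Rbf than B1/P tumors numbered 1 within 1 library set (4 in the fit of all samples) and 2 to 6 with a library left out. P/Rbf against B1/P gave 2 with a log2 CPM of at least 6, where fewer genes are tested, and 2 with the library-set term. Against glands, B1/P/Rbf gave 1 lower with the set term and 2 to 4 with a library left out. B1/P gave 1 lower in the fit of 2 groups, 1 with DESeq2, 1 with limma-voom and 0 to 1 with a library left out (1 without 225070), and 1 to 4 higher (1 without gland 330155). P/Rbf gave 1 lower with the log2 CPM filter and 1 to 4 with a library left out, where 1 was reached without 287842, 290860, 290845, 330154 or 330156. For B1/P/Rbf against B1/P, 2 was reached without 208857, 209490, 210906 or 246361. Called correlations numbered 1 to 11. The cause was not tested for any of these.

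Uncalled values changed sign as follows, and the cause was not tested. With the library-set term, B1/P/Rbf against glands gave 0.33 for Pdgfra, -0.24 for Pdgfrb and -0.98 for Postn, B1/P/Rbf against P/Rbf gave -0.15 for Pdgfrb and -0.99 for Postn, B1/P against glands gave -0.16 for Sparc, and P/Rbf against B1/P gave 0.59 for Lum. Within 1 set the last 2 were -0.15 and 0.59. Without TMM, Pdgfra in B1/P/Rbf was 0.05 and Pdgfrb in P/Rbf 0.19 against glands. With a log2 CPM of at least 6, values against glands were -0.17 (Pdgfrb) and -0.19 (Postn) in B1/P/Rbf, -0.39 (Postn) in P/Rbf and -0.03 (Sparc) in B1/P. Postn in P/Rbf was 0.003 against glands, -0.16 with CPM of at least 6 and -0.01 with DESeq2. Limma-voom gave 0.07 for Pdpn in P/Rbf against glands and 0.02 for Lum in B1/P/Rbf against P/Rbf.

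With a library left out, B1/P/Rbf against P/Rbf ran from -0.14 to 1.77 for Pdgfra, -0.01 to 0.39 for Pdgfrb, -0.73 to 0.48 for Pdpn, -0.48 to 0.09 for Thy1, -0.29 to 0.24 for Postn, -1.45 to 0.35 for Dcn and -0.72 to 0.49 for Lum. B1/P/Rbf against B1/P ran from -0.43 to 0.10 for Fap and -0.61 to 0.41 for Dcn, and P/Rbf against B1/P from -0.29 to 1.22 for Dcn, -1.37 to 0.31 for Lum and -0.28 to 1.00 for Fn1. Against glands, Pdgfrb ran from -0.10 to 0.30 in B1/P/Rbf and -0.25 to 0.08 in P/Rbf, Pdpn from -0.89 to 0.02 in P/Rbf, Postn from -0.29 to 0.35 in B1/P/Rbf and -0.22 to 0.25 in P/Rbf, and Sparc from -0.01 to 0.40 in B1/P. Log2 ratios in B1/P/Rbf against P/Rbf ran from -0.87 to 0.18 (Pdgfrb to Pdgfra), -0.70 to 0.77 (Postn to Dcn), -0.85 to 1.15 (Lum to Dcn) and -0.33 to 0.45 (Fap to Pdgfra), and in B1/P against glands from -0.52 to 0.18 (Pdgfrb to Pdgfra) and -0.99 to 0.02 (Lum to Dcn).

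No paired analysis was possible because the labels give the groups no shared replicate numbers. Groups of 5 and 3 mice, glands rich in muscle and fat RNA, and whole tissue limit every comparison with glands. B1/P/Rbf tumors and P/Rbf tumors or glands lie in different library sets, so the set term in those comparisons rests on the 5 B1/P tumors alone, which lie in both sets.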
